A study of Mus musculus with 4 samples.

Results

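AMP-activated protein kinase (AMPK) is built from a catalytic α, a scaffolding β and a nucleotide-binding γ subunit, each encoded by more than 1 gene. The genes described here are Prkaa1 and Prkaa2 (α1 and α2), Prkab1 and Prkab2 (β1 and β2), Prkag1, Prkag2 and Prkag3 (γ1, γ2 and γ3), and Stk11, which encodes LKB1, a kinase that activates AMPK. They were picked out by gene symbol, and the set was chosen with earlier results of these data known. Of the 8, 7 were found among the 13825 genes of the count table. Prkag3 was not analysed here. All 7 averaged at least 10 counts per library and were therefore among the 13084 genes tested.

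RNA-Seq was performed on tibialis anterior (TA) muscle of adult male mice, either wild type (WT) or with a whole-body deletion of Fgf21 (Fgf21KO), a secreted growth factor that acts on metabolism. Per the labels, a 2 mm piece of the left sciatic nerve was taken out, while the right leg kept its nerve and served as the control, which the study calls sham. TA muscles were collected 14 days later, and 4 muscles were pooled into 1 library for each of 4 groups. For WT these are sham (WS) and denervated (WD), and for Fgf21KO likewise sham (KS) and denervated (KD). The study's methods describe a longer excised segment and a sham operation on the opposite limb, name C57BL/6J as the WT strain, and give no strain background for the knockout. Each group is 1 library of pooled muscles, so a difference between any 2 of them has nothing to check it against, and the spread between mice is unknown.

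Total counts over the genes analysed ran from 25249879 (WS) to 34141303 (KS). The 35 mitochondrially encoded genes took 27.4% and 30.9% of the counts in the sham libraries and 19.7% and 20.8% in the denervated ones. Levels are given as CPM, counts relative to the library total, after TMM scaling, which sets the bulk of genes level between libraries, and a count of 3 corresponds to 0.0920 to 0.129 CPM. Intervals are 95% intervals that cover counting error only and leave out the spread between mice. Reads were counted without molecular identifiers, so duplicate reads count separately and the intervals can be too narrow even for counting error. Of the muscle fibre markers only Des was among the genes analysed, at 3775 CPM in WS and 5865 in WD, and 3850 in KS and 5290 in KD. The denervation markers Ncam1 and Runx1 were higher in both denervated libraries, with log2 ratios of 3.33 and 6.41 in WT and 3.74 and 6.57 in Fgf21KO. Fgf21 was not analysed here, which leaves the genotype labels unchecked by their own target.

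AMPK is switched on when AMP or ADP binds the γ subunit and when an upstream kinase, chiefly LKB1 in skeletal muscle, phosphorylates the α subunit. Active AMPK promotes glucose uptake and fatty acid oxidation, slows synthesis of lipid, glycogen and protein, and phosphorylates class IIa histone deacetylases such as HDAC4. Muscle fibres carry mainly α2 and β2, whereas α1 and β1 are common in many other cell types. The values below are transcript levels and say nothing of protein amount, phosphorylation or kinase activity.

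Per kilobase of merged exons (RPKM, from the TMM-scaled CPM), Prkab2 was the highest of the 7 genes in WS, at 125. It was followed by Prkaa2 at 54.7, Stk11 at 51.8 and Prkag1 at 39.6. Prkab1 (5.88), Prkag2 (5.0) and Prkaa1 (4.81) lay far lower. In KS the order was the same, with Prkab2 at 128, Prkaa2 at 57.7, Stk11 at 51.8 and Prkag1 at 39.1 RPKM. The counting intervals of neighbours overlapped among Prkab1, Prkag2 and Prkaa1 in both sham libraries, and the order of Prkaa2 and Stk11 in WS turned when the longest transcript set the length, with Stk11 then at 56.4 RPKM, as did that of Prkab1 and Prkag2 in KS (5.88 and 5.99 RPKM). The order of levels was different in the denervated libraries. In WD, Prkab2 stood at 56.9 RPKM, Stk11 at 33.4, Prkag1 at 28.0 and Prkaa2 at 26.4, and in KD the same genes stood at 55.6, 31.2, 26.4 and 22.9. Prkaa1, the lowest in both sham libraries, moved up to rank 5, at 6.87 RPKM in WD and 7.55 in KD. Prkag2, which forms the γ2 subunit, was the lowest of the 7 after denervation, at 2.37 and 2.29 RPKM. In WD the counting intervals of Prkag1 and Prkaa2 overlapped, as did those of Prkaa1 and Prkab1, whereas in KD neither pair overlapped. The plot of CPM by library shows each gene on its own scale.

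**Figure D1:**
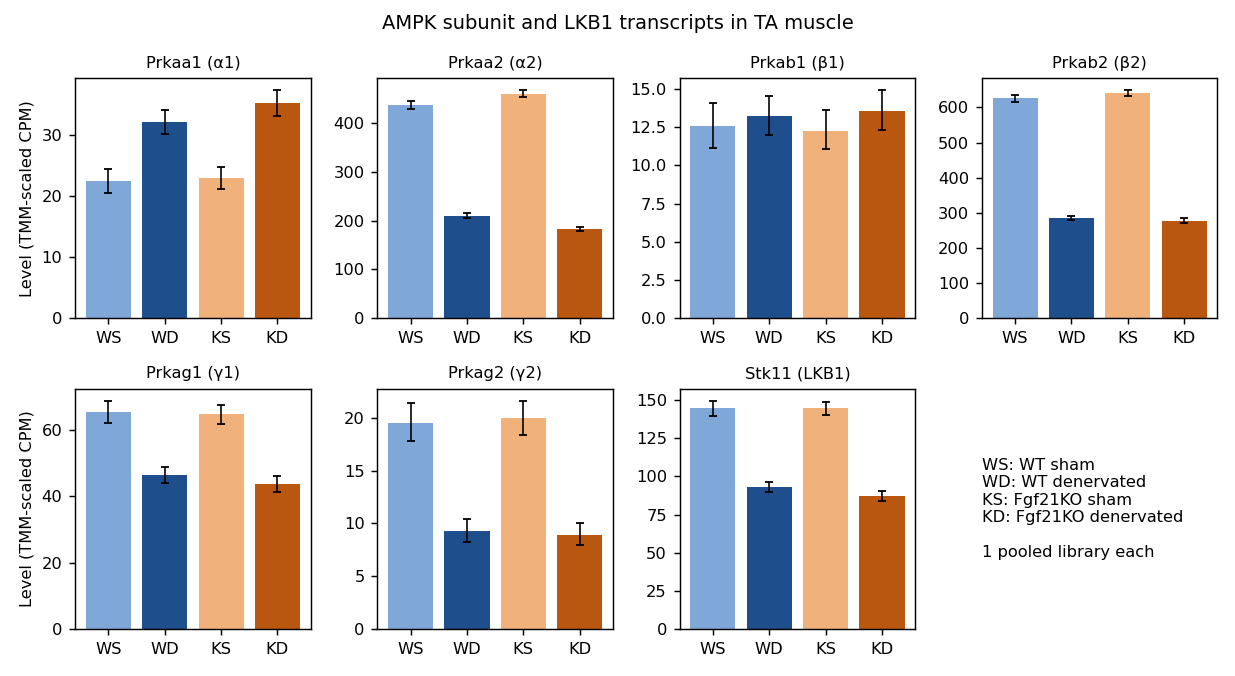
TMM-scaled CPM (vertical axis, a separate scale from 0 for each gene) of the 7 genes in the WS, WD, KS and KD libraries, with 1 pooled library per bar and error bars for 95% counting intervals. Prkaa2, Prkab2, Prkag1, Prkag2 and Stk11 were lower in both denervated libraries, Prkaa1 was higher, and Prkab1 lay between 12.3 and 13.6 CPM in all 4.

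The promoters of Prkaa1, Prkaa2 and Prkab2 are printed because Prkaa2 and Prkab2 had the widest range of levels over the 4 libraries and fell after denervation, whereas Prkaa1 rose. Each line gives the 250 bases before the start site in RefSeq (GRCm38.p6), 5′ to 3′ on the strand of the gene, with every GC box in capitals. A GC box is GGGCGG on either strand, and it is the letter pattern known to be bound by Sp1-type factors. Prkaa1 lies on the plus strand at chr15:5143611-5143860, Prkaa2 on the minus strand at chr4:105109899-105110148 and Prkab2 on the plus strand at chr3:97657962-97658211.
Prkaa1: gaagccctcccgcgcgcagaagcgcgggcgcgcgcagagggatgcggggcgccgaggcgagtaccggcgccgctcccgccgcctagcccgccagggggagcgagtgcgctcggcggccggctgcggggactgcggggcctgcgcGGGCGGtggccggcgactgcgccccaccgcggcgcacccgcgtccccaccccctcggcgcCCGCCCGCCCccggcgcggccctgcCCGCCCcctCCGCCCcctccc
Prkaa2: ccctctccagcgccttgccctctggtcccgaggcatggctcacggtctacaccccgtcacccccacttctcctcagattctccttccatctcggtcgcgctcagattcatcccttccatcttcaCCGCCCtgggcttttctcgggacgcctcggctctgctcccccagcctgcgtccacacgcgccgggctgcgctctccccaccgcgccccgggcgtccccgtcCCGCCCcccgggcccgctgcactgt
Prkab2: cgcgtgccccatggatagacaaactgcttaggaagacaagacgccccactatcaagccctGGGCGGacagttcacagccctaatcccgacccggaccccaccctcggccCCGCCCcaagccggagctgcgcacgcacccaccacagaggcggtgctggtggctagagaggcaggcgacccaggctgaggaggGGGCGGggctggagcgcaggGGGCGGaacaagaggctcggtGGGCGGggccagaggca
The windows held 5 GC boxes for Prkaa1, 2 for Prkaa2 and 5 for Prkab2, with overlapping matches counted separately. Of 32851 windows of 300 bases over all RefSeq starts, 35.7% held at least 1 GC box and 10.7% held 3 or more. In the same 300-base windows, GC content was 82.0% for Prkaa1, 72.7% for Prkaa2 and 68.0% for Prkab2, beside a median of 52.7% over all windows. None of these 3 windows, nor that of Prkab1, held an E-box (CANNTG, both strands). This pattern was found in 72.3% of all windows and is bound by factors such as MyoD and the clock proteins. The windows of Prkag1 and Prkag3 held 1 E-box each and that of Stk11 held 2. Those of Prkag2, with a window for each start, held 2, 3 and 2. The letters TGACG (both strands), part of the cyclic AMP response element, were found in 20.8% of all windows. They occurred 1 time each in the windows of Prkaa2, Prkag1 and Stk11, and not in those of the other genes. A match is a description of the letters only.

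Among the catalytic subunits, Prkaa2 fell after denervation and Prkaa1 rose, in both genotypes. Prkaa2, which encodes α2, the main catalytic subunit of skeletal muscle fibres, stood at 436 CPM in WS and 210 in WD, 460 in KS and 183 in KD. Both denervated libraries lay below both sham libraries. The log2 ratio was −1.05 in WT (interval −1.10 to −1.01) and −1.33 in Fgf21KO (−1.38 to −1.29), a level 2.08-fold and 2.52-fold lower. In the additive model of genotype and surgery over all 4 libraries, the log2 change with denervation was −1.19 (adjusted p = 8.37e-11, edgeR's quasi-likelihood test). The p-values of that model treat any genotype difference in the response as noise, because the interaction supplies its 1 residual degree of freedom. Prkaa2 lies on chr4:105029874-105109890 of GRCm38 (minus strand).

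Prkaa1 encodes α1, the catalytic subunit found in most cell types, and lies on chr15:5143861-5181899 (plus strand, GRCm38). It stood at 22.4 CPM in WS and 32.0 in WD, 22.9 in KS and 35.2 in KD, so that both denervated libraries were above both sham libraries. The log2 ratio was 0.51 in WT (0.36 to 0.67) and 0.62 in Fgf21KO (0.48 to 0.76), and the additive log2 change was 0.57 (adjusted p = 4.05e-05, edgeR's quasi-likelihood test). Prkaa1 and Prkaa2 are paralogs, and their longest stretch of identical transcript sequence was 35 bases, in the coding sequence of both, which is printed to show how far reads could be assigned to either gene.
Prkaa1 and Prkaa2: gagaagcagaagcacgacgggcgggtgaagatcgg
A read of at most 35 bases that lies wholly within this stretch could be counted on either gene. Any longer read would also cover bases that differ between the 2 genes. How the counting treated reads that match both is not given in the sources used here.

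Whole muscle was sequenced, so a lower level can come from fewer cells of a type or from less RNA per cell, and these cannot be told apart. Markers of several other cell types moved with denervation, where 26.4% of all genes rose and 26.6% fell. Des, the 1 fibre marker measured, rose (log2 change 0.55, adjusted p = 2.35e-05, edgeR). All 8 macrophage markers rose, with a summed level of 28.9 and 28.5 CPM in the sham libraries and 65.0 and 65.5 in the denervated ones, and none of the 8 was at 0 in any library. By DESeq2's Wald test 3 of the 8 macrophage and 5 of the 6 endothelial markers passed, and Itgam had a log2 ratio of 0.01 in WT. All 6 endothelial markers fell, with sums of 465 and 377 CPM against 217 and 207, as did all 4 smooth muscle and pericyte markers, with sums of 652 and 612 against 275 and 271. Of 6 markers of fibroblasts and fibro-adipogenic progenitors, 4 fell and 2 did not pass, with sums of 617 and 596 CPM against 405 and 421. Of 3 Schwann cell markers tested, 1 fell and 2 did not pass (sums of 23.8 and 22.5 CPM against 17.0 and 17.5). Of 2 adipocyte markers tested, 1 fell and 1 did not pass (226 and 231 CPM against 159 and 168). The 1 satellite cell marker tested did not pass (4.21 and 5.52 CPM against 3.83 and 4.27). The fast-fibre genes Myh1, Tnni2 and Mylpf, 3 of the 10 listed, all fell, with sums of 41843 and 40560 CPM against 25502 and 27737, while of 3 slow-fibre genes among 7 listed, Tnnt1 and Atp2a2 rose and Tnnc1 did not pass. With total counts only, Myh1, Emcn, Dcn, Col3a1 and the Schwann cell marker Mbp no longer passed and Tnnc1 did. The part of these changes in the levels of the AMPK genes was not tested.

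Of the scaffold genes, Prkab2 fell after denervation and Prkab1 did not pass the test. Prkab2, which encodes β2, the muscle-enriched scaffold that carries a glycogen-binding module, was measured with 8599 to 19037 counts. It stood at 626 CPM in WS and 285 in WD, 641 in KS and 278 in KD, without overlap between sham and denervated libraries. The log2 ratio was −1.13 in WT (−1.17 to −1.10) and −1.20 in Fgf21KO (−1.24 to −1.17), or 2.19-fold and 2.30-fold lower. The additive log2 change was −1.17 (adjusted p = 3.46e-11, edgeR's quasi-likelihood test). Prkab1, for β1, did not pass this test (log2 change 0.11, adjusted p = 0.477, edgeR), at 12.5 CPM in WS and 13.2 in WD, 12.3 in KS and 13.6 in KD. Its ratio intervals were −0.14 to 0.29 in WT and −0.06 to 0.35 in Fgf21KO. They cover counting error under TMM scaling only, so they set no upper limit to the change. Scaled by total counts only, Prkab1 passed with a log2 change of 0.43 (adjusted p = 0.0125, edgeR), while adjusted p over the settings tried reached 0.774.

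Prkab2 lies on chr3:97658193-97673812 (plus strand) and Prkab1 on chr5:116013586-116024508 (minus strand), both on GRCm38. Their longest identical transcript stretch was 23 bases, in the coding sequence of both.
Prkab1 and Prkab2: ggagagcatcagtacaagttctt
An exon of Prkab2 also overlaps an exon of Gm17651 by 9 bases on the opposite strand.

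Both γ genes measured fell after denervation. Prkag1, for γ1, the most widely used nucleotide-binding subunit, stood at 65.4 CPM in WS and 46.2 in WD, 64.6 in KS and 43.6 in KD. Its log2 ratio was −0.50 in WT (−0.60 to −0.40) and −0.57 in Fgf21KO (−0.67 to −0.46), with an additive log2 change of −0.53 (adjusted p = 8.77e-06, edgeR's quasi-likelihood test). Prkag2, for γ2, in which inherited mutations cause a heart muscle disease with glycogen storage, stood at 19.5 CPM in WS and 9.26 in WD, 19.96 in KS and 8.93 in KD. It had 276 to 593 counts, and its log2 ratios of −1.07 (−1.29 to −0.86) and −1.15 (−1.37 to −0.95) carry the widest intervals of the genes that fell, and both intervals include the 2-fold line at −1. The additive log2 change of Prkag2 was −1.12 (adjusted p = 1.59e-07, edgeR). For both genes the denervated libraries lay below the sham libraries.

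Prkag1 lies on chr15:98812797-98831521 and Prkag2 on chr5:24862744-25100642, both on the minus strand of GRCm38. Their longest identical transcript stretch was 15 bases. Exons of antisense genes overlap both on the opposite strand, B130046B21Rik by 153 bases for Prkag1 and Prkag2os2 by 55 bases for Prkag2. The library kit keeps strand, but whether strand was used in counting is not given in the sources used here, so reads of a gene and its antisense partner might not be separated.

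Stk11, which encodes LKB1, fell after denervation, as did 4 of the 6 subunit genes measured. It stood at 145 CPM in WS and 93.2 in WD, 145 in KS and 87.2 in KD, and the denervated libraries lay below the sham libraries in both genotypes. The log2 ratio was −0.64 in WT (−0.71 to −0.56) and −0.73 in Fgf21KO (−0.80 to −0.66). The additive log2 change was −0.68 (adjusted p = 1.12e-07, edgeR's quasi-likelihood test). Stk11 lies on chr10:80115803-80130682 (plus strand, GRCm38), and an exon of Cbarp on the opposite strand overlaps it by 232 bases.

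In all, 5 of the 7 genes fell and 1 rose in the additive model, beside 26.6% and 26.4% of all genes tested. With total counts only, 1674 of the 13084 genes fell and 6114 rose, where TMM scaling gave 3474 and 3450. At the study's fold of 2, with no test, 3 of 7 were lower in WD than in WS (Prkaa2, Prkab2 and Prkag2), where 7.52% of all genes were, and the same 3 in KD against KS, where 6.07% were. At 1.5-fold, 4 of 7 were lower in each genotype, Stk11 being the fourth (all genes: 17.6% in WT and 16.7% in Fgf21KO), and Prkaa1 was higher in Fgf21KO but not in WT (all genes: 17.2% in each). With the test and 2-fold together, 3 of 7 fell and 0 rose, beside 6.15% and 6.8% of all genes. The median log2 ratio of the 7 genes was −0.64 in WT and −0.73 in Fgf21KO, while that of all genes was 0.01 in both. These 2 comparisons share no library.

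The 2-fold calls depended on the scaling, which sets the level that a ratio is read against. Scaled by total counts only, the median gene itself moved up, by 0.29 (log2) in WT and 0.36 in Fgf21KO, and none of the 7 genes was 2-fold apart. Prkaa2 then had ratios of −0.77 and −0.98, Prkab2 of −0.85 and −0.85, and Prkag2 of −0.79 and −0.80. Relative to the median gene, Prkaa2 was at −1.06 and −1.34, Prkab2 at −1.14 and −1.21, and Prkag2 at −1.08 and −1.16. These relative values lie close to the TMM ratios by construction, because a scaling moves all genes of a library alike, and are no separate check. The direction of each of the 6 genes that passed was the same under every scaling tried.

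**Figure D2:**
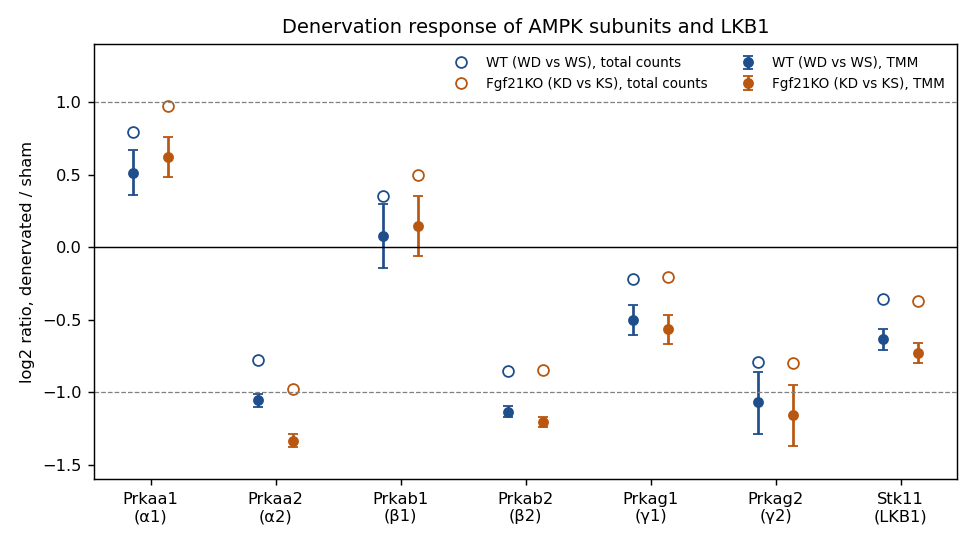
Log2 ratio of denervated to sham (vertical axis) for the 7 genes in WT and Fgf21KO, with TMM scaling (filled points, bars for 95% counting intervals) and total counts only (open points); dashed lines mark 2-fold. With TMM scaling, Prkaa2, Prkab2 and Prkag2 lie below −1 in both genotypes, and with total counts only every point lies higher and none passes −1.

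The balance of isoforms within a family does not depend on how libraries are scaled. Prkaa2 made up 95.1% of the α counts in WS (exact binomial interval 94.7 to 95.5) and 86.8% in WD (86.0 to 87.5), 95.3% in KS (94.9 to 95.6) and 83.9% in KD (83.0 to 84.7). The intervals of sham and denervated libraries did not overlap, so α2 lost share to α1 by more than counting error in both genotypes. There were 19.5 counts of Prkaa2 for each count of Prkaa1 in WS and 20.1 in KS, against 6.57 in WD and 5.19 in KD. The ratio of α2 to α1 was thus 2.97-fold lower in WD than in WS (log2 change −1.57, −1.73 to −1.41) and 3.88-fold lower in KD than in KS (−1.95, −2.10 to −1.81). Per kilobase, Prkaa2 was 91.9% and 92.2% of the α transcripts in the sham libraries, 79.3% in WD and 75.2% in KD, so that it remained the larger share everywhere.

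Among the β genes, Prkab2 took 98.0% of the counts in WS and 95.6% in WD, 98.1% in KS and 95.3% in KD. The ratio of β2 to β1 changed by −1.21 on the log2 scale in WT (−1.43 to −0.99) and by −1.35 in Fgf21KO (−1.55 to −1.14). Prkag2 took 23.0% of the γ1 and γ2 counts in WS and 16.7% in WD, 23.6% in KS and 17.0% in KD. The log2 changes in the ratio of γ2 to γ1 were −0.57 (−0.81 to −0.34) in WT and −0.59 (−0.82 to −0.37) in Fgf21KO. In every family the share of the isoform numbered 2 was the lower in the denervated libraries. Since Prkag3 was not analysed here, the γ shares cover γ1 and γ2 only.

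**Figure D3:**
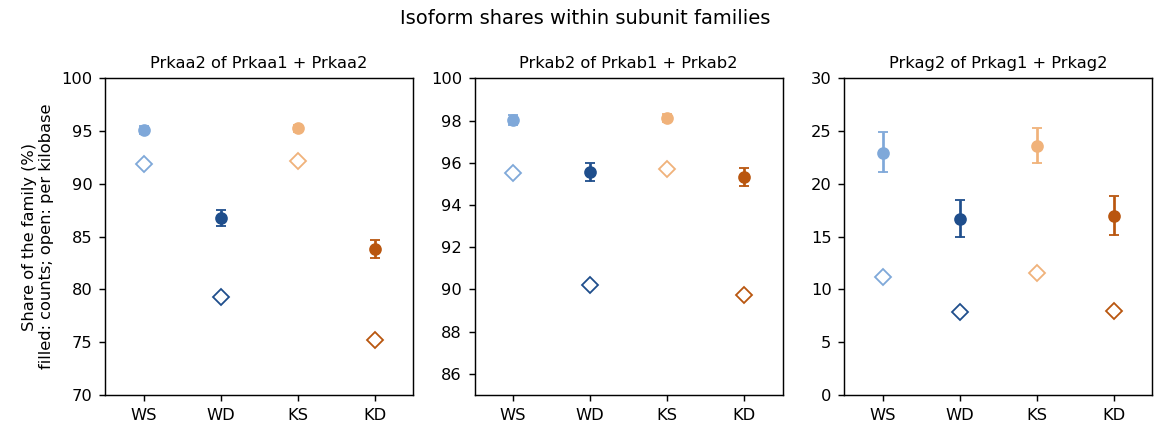
Share of Prkaa2, Prkab2 and Prkag2 in the counts of their family (vertical axis in percent, a different range in each panel, not starting from 0 for α and β) in WS, WD, KS and KD; filled points are shares of counts with exact 95% intervals and open points are shares per kilobase of merged exons. All 3 shares were lower in the denervated libraries, and the α share was lowest in KD at 83.9%.

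Between genotypes the 7 genes differed little. In sham muscle the log2 ratios of KS to WS ran from −0.03 (Prkab1) to 0.08 (Prkaa2, interval 0.04 to 0.11), and none was 2-fold apart, beside 2.04% of all genes. The interval of Prkab2 also left out 0 (log2 ratio 0.03, 0.004 to 0.07), and those of the remaining genes included 0. In denervated muscle the log2 ratios of KD to WD ran from −0.20 to 0.14, again with none 2-fold apart, beside 1.56% of all genes. Both ends were α genes. Prkaa2 was lower in KD (183 against 210 CPM, log2 ratio −0.20, −0.25 to −0.15), and Prkaa1 was higher (35.2 against 32.0 CPM, log2 ratio 0.14, 0.01 to 0.26). Stk11 had a ratio of −0.09 (−0.17 to −0.02), and the intervals of the other 4 genes included 0. In the additive model 0 of the 7 genes passed for genotype, beside 0.573% of all genes (adjusted p of 0.901 for Prkaa1 and higher for the others, edgeR's quasi-likelihood test). None had an unadjusted p under 0.05, and DESeq2's Wald test also called 0. Differences that mice of 1 genotype would show among themselves cannot be told apart from these.

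The size of the denervation response differed most between genotypes for Prkaa2. The log2 ratio in Fgf21KO minus that in WT was −0.28 for Prkaa2 (counting interval −0.34 to −0.22) and −0.07 for Prkab2 (−0.12 to −0.02). For the other 5 genes the interval included 0, with differences from −0.09 (Stk11, −0.19 to 0.01) to 0.11 (Prkaa1, −0.10 to 0.31). Thus 2 of 7 intervals left out 0, which was near the 29.3% of all genes for which that was so, and the median size of this difference over all genes was 0.17. With 1 library for each combination this interaction could not be tested. The ratio of α2 to α1, which is free of scaling, was lower in KD than in WD by a log2 change of −0.34 (−0.47 to −0.21), while between the sham libraries it changed by 0.05 (−0.12 to 0.22). The corresponding changes between KD and WD were −0.07 (−0.27 to 0.12) for β2 to β1 and 0.03 (−0.23 to 0.29) for γ2 to γ1.

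Genes whose pattern over the 4 libraries lay closest to those of Prkaa2 and Prkab2 were sought among 11315 genes averaging at least 50 counts, by Euclidean distance of centred log2 CPM. For Prkaa2 they were Capn3 (distance 0.05), which encodes a muscle-specific calpain, Hjv (0.06), for hemojuvelin, and Ak6 (0.06), for adenylate kinase 6. Capn3 had log2 ratios of −1.05 in WT and −1.39 in Fgf21KO, Hjv of −1.01 and −1.30, and Ak6 of −1.03 and −1.26. For Prkab2 they were Ank (0.03), for a membrane protein of pyrophosphate export, Fem1a (0.04), for a substrate receptor of a ubiquitin ligase, and Hlf (0.05), for a transcription factor of the PAR bZIP family. Ank had ratios of −1.15 and −1.19, Fem1a of −1.11 and −1.17, and Hlf of −1.17 and −1.21. Likeness over 4 libraries that share 2 surgeries and 2 genotypes is a description only.

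Of 59 other genes of the AMPK pathway, listed by hand, 55 were tested. In the additive model 27 of them fell with denervation, 16 rose and 12 did not pass (all genes: 26.6% fell and 26.4% rose). Scaled by total counts only, 16 fell, 22 rose and 17 did not pass, where 1674 of all 13084 genes fell and 6114 rose. With DESeq2's Wald test 20 fell, 8 rose and 27 did not pass, where 2474 of all 13084 genes fell and 2192 rose. Their median log2 ratio was −0.20 in WT and −0.18 in Fgf21KO. At 2-fold, 7 were lower and 4 higher in WD vs WS (all genes: 7.52% and 7.25%), and 6 were lower and 3 higher in KD vs KS (all genes: 6.07% and 7.52%). In both genotypes, Pfkfb3, Slc2a4, Hdac5, Snrk and Ppm1a were 2-fold lower and Sik1, Hdac4 and Sesn3 2-fold higher. Scaled by total counts only, the last 3 and Pfkfb3 were still 2-fold apart in both genotypes, and the others were not, at −0.69 to −0.94 on the log2 scale.

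Among the partners and relatives of LKB1, 3 of the 4 genes for its activating complex fell and 1 rose (all genes: 26.6% and 26.4%). With DESeq2's Wald test, however, only Stradb passed. Strada, for the pseudokinase that activates LKB1, rose (15.99 CPM in WS and 18.6 in WD, 14.7 in KS and 18.6 in KD, additive log2 change 0.28, adjusted p = 0.0446, edgeR), without passing when no filter was used (adjusted p = 0.0504) or by DESeq2 (0.289). Cab39, for the scaffold MO25α, fell slightly (252, 231, 281 and 233 CPM, log2 change −0.20, adjusted p = 0.024, edgeR), and with total counts only it did not pass and its sign turned. The other 2 that fell were Stradb and Cab39l, named after their values were seen, with log2 changes of −0.69 and −0.32, of which Cab39l also did not pass with total counts only. Of 3 other kinases that can act on AMPK, 1 rose and 2 did not pass. Camkk2, which phosphorylates AMPK in response to calcium, was the 1 that rose (4.25 CPM in WS and 6.44 in WD, 3.27 in KS and 5.82 in KD, additive log2 change 0.71, adjusted p = 0.00458, edgeR), on 97 to 210 counts. It did not pass DESeq2's Wald test (adjusted p = 0.0823), by which 0 of the 3 passed.

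LKB1 also activates kinases related to AMPK, of which 10 of 12 were tested. Of these 6 fell, 2 rose and 2 did not pass, beside 26.6% of all genes that fell and 26.4% that rose. The splits were 2, 2 and 6 with total counts only, and 2, 1 and 7 with DESeq2's Wald test. Sik1, an inducible kinase that acts on CRTC coactivators and class IIa histone deacetylases, had the largest ratio of any gene in the pathway lists. It stood at 8.34 CPM in WS and 89.0 in WD, 7.84 in KS and 85.9 in KD, and had log2 ratios of 3.41 and 3.44. Snrk was lower, at 74.1, 33.7, 69.0 and 33.4 CPM, with log2 ratios of −1.13 and −1.05.

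Of 11 genes whose products bind, tether or dephosphorylate AMPK, 10 were tested. Of these 3 rose, 3 fell and 4 did not pass, beside 26.4% of all genes that rose and 26.6% that fell. The splits were 6, 1 and 3 with total counts only, and 1, 2 and 7 with DESeq2's Wald test. Sesn3, for a sestrin, rose from 5.03 to 13.9 CPM in WT and from 4.38 to 14.8 in Fgf21KO (log2 ratios 1.45 and 1.75). Ppm1a, for a phosphatase that can dephosphorylate AMPK, fell from 279 to 135 CPM in WT and from 276 to 128 in Fgf21KO (−1.05 and −1.10).

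Among substrates, 6 of 11 in metabolism fell, 4 rose and 1 did not pass (5, 5 and 1 with total counts only, and 6, 2 and 3 with DESeq2's Wald test). For this and the next 2 lists, the shares over all genes in the additive model were 26.6% lower and 26.4% higher. Pfkfb3, for an enzyme that makes the glycolytic activator fructose 2,6-bisphosphate, stood at 428 CPM in WS and 111 in WD, 343 in KS and 83.3 in KD, and had log2 ratios of −1.94 and −2.04. It was also the only gene of the pathway lists called for genotype in the additive model (log2 change −0.37 in Fgf21KO, adjusted p = 0.0128, edgeR). Of 5 substrates in growth and autophagy, 2 rose, 2 fell and 1 did not pass, and of 6 in transcription 2 rose, 2 fell and 2 did not pass. With total counts only, these splits were 3, 1 and 1 in the first list and 3, 2 and 1 in the second, and DESeq2's Wald test gave 2, 2 and 1 and 1, 2 and 3. Hdac4, whose product represses muscle genes in the nucleus until kinases such as AMPK drive its export, stood at 44.3 CPM in WS and 289 in WD, 41.5 in KS and 298 in KD (in log2, 2.71 and 2.84). Its relative Hdac5 went the other way, at 82.3, 38.3, 77.6 and 33.7 CPM (−1.10 and −1.20). Between genotypes, the log2 ratios of Hdac4 were −0.09 for the sham and 0.04 for the denervated libraries. Its log2 ratio in Fgf21KO minus that in WT was 0.14 (counting interval 0.01 to 0.26). Such intervals left out 0 for 29.3% of all genes. In the additive model Hdac4 did not pass for genotype (adjusted p = 0.98, edgeR's quasi-likelihood test).

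Of 7 muscle genes known to rise with AMPK activators, 6 were tested, and 5 fell and 1 rose (all genes: 26.6% and 26.4%). Slc2a4, for the insulin-responsive glucose transporter GLUT4, fell from 766 to 345 CPM in WT and from 848 to 345 in Fgf21KO (log2 ratios −1.15 and −1.30). The gene that rose was Pdk4, for a kinase that restrains pyruvate oxidation, named after its values were seen, at 621 CPM in WS and 1007 in WD, 605 in KS and 888 in KD. The others that fell, also named after their values were seen, were Cpt1b, Cycs, Cs and Hk2, with additive log2 changes of −0.68, −0.54, −0.49 and −0.25. With total counts only, Hk2 did not pass and its sign turned, while the other 5 kept their direction and call.

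**Figure D4:**
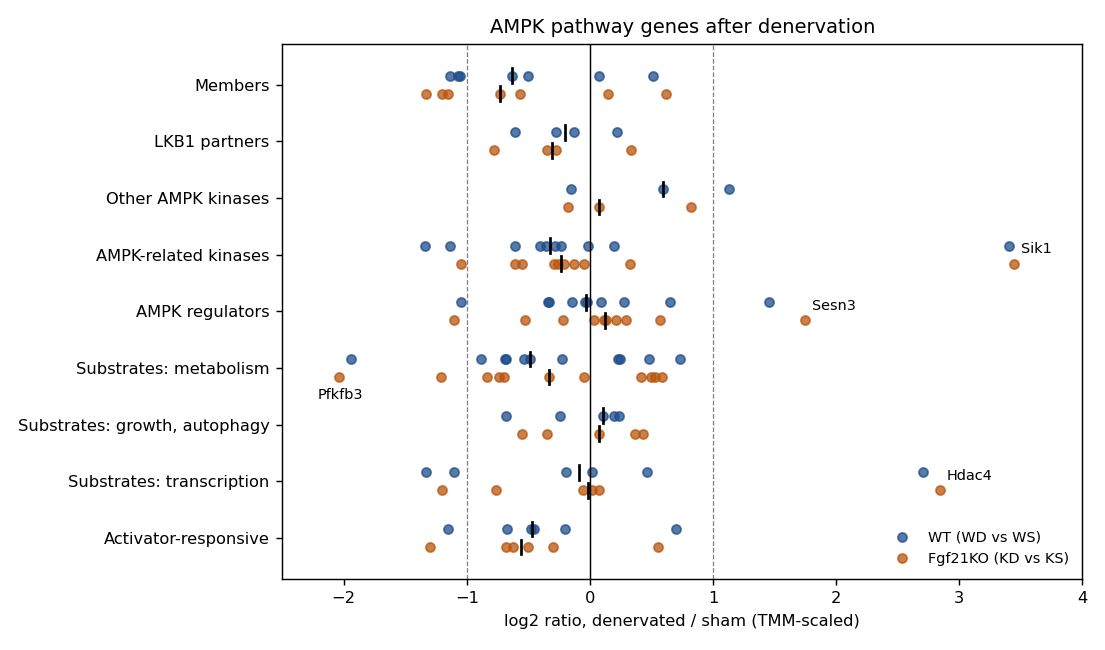
Log2 ratio of denervated to sham (horizontal axis, TMM-scaled) of the AMPK genes and 8 lists of pathway genes, with 1 point per gene in WT and in Fgf21KO, black bars for the median of each list and dashed lines at 2-fold. The AMPK genes have medians of −0.64 and −0.73, and Sik1, Hdac4, Sesn3 and Pfkfb3 are the named points farthest from 0.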

How the data were processed

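TA muscle RNA was sequenced as 1 pooled library per group, and samples were grouped by their labels. The authors deposited raw read counts per gene, and a second table of log2 values that, checked against the counts, are log2 of 1 plus the count scaled by a constant of its library. The submitters' processing notes name GRCm39 and FastQC; the aligner and counter are not given in the sources used here. The 13084 of 13825 genes averaging at least 10 counts were tested after TMM scaling over all genes, with a prior count of 2 for ratios. Pairs of libraries were compared without a test at 2-fold, with exact (Clopper-Pearson) intervals. An additive model of genotype and surgery was tested by edgeR's quasi-likelihood method, with p-values adjusted over all genes by Benjamini-Hochberg (common biological coefficient of variation 0.068). All 7 AMPK genes were named. From each pathway list, genes 2-fold apart the same way in both genotypes were named (at most 3 a direction), with Hdac4, Camkk2, Cab39 and Strada, and for the 2 genes of widest range the 3 nearest by pattern. Of cell markers, sums were given, and Itgam was the 1 marker 2-fold apart between genotypes (log2 ratio −1.88 in KS vs WS, on 11 to 65 counts). The genes and lists were chosen with earlier results of these data known. Positions and lengths are from GENCODE M21 on GRCm38, and were used only for lengths and printed coordinates. Other settings tried were total counts with and without mitochondrial genes, size factors from DESeq2, prior counts of 0.125 and 5, filters at 0 and 50 counts on average, the second deposited table, exact tests at assumed variation, DESeq2's Wald test and other folds; the longest transcript as length was added after seeing the data. Scripts were tested on simulated data. R 4.3.3, edgeR 4.0.16, DESeq2 1.42.0, Python 3.11.15 and scipy 1.17.1 were used.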

Additional observations from a re-analysis of the deposited data

How the results depend on the processing

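In the additive model, each of the 6 AMPK genes that passed for denervation kept its direction and its call under every scaling and filter tried and with DESeq2's Wald test. With total counts only, the count of AMPK genes 2-fold lower went from 3 to 0 in both genotypes, and that of genes rising in the additive model from 1 to 2. Without mitochondrial genes in the totals, 1 was 2-fold lower in WD vs WS. The counting interval of the genotype difference left out 0 for 1 gene under either of these scalings and for 3 with DESeq2's size factors (2 with TMM), and the difference for Prkab2 turned from −0.07 to 0.00725 with total counts only. Pathway genes 2-fold lower went from 7 to 3 in WT and from 6 to 1 in Fgf21KO with total counts only. Under that scaling the median gene moved up by 0.29 (log2) in WT and 0.36 in Fgf21KO. No share over all genes is given here for 2-fold and interval counts under scalings other than TMM. The same holds for the exact tests that follow. When edgeR's exact test, which compares libraries and not conditions, was added at an assumed variation of 0.2, 1 AMPK gene was lower in KD vs KS and 0 in WD vs WS, and 0 in both at 0.4. With adjusted p and 2-fold together, 3 fell and 0 rose. At 1.5-fold, 1 AMPK gene was higher after denervation in Fgf21KO (all genes: 17.2%). Of the 55 pathway genes tested, 8 were higher and 14 lower after denervation in WT at that fold (all genes: 17.2% and 17.6%). In Fgf21KO 14 of them were lower (all genes: 16.7%), and those higher were Camkk2, Sik1, Sesn3 and Hdac4 (all genes: 17.2%). Between genotypes at 1.5-fold, 1 pathway gene was lower in KS than in WS. Among the denervated libraries, 1 was higher and 1 lower in KD. For these genotype pairs no share over all genes at 1.5-fold is given here. Over all genes, calls for genotype went from 75 to 158 with DESeq2's size factors, 36 with total counts only and 30 with DESeq2's Wald test, and 0 of the AMPK genes was among them. The scaling moves every ratio by its own construction; other causes were not tested. No replicate could be left out, since each group is 1 library and the additive model without any 1 library has no residual degrees of freedom. No paired analysis was possible because the muscles of a group were pooled into a single library. Depth limits Prkab1 and Prkag2 most, with under 600 counts in each library.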
